A study of Homo sapiens with 26 samples.

Results

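TF-1 cells lacking TET2 were compared with TF-1 cells that keep it, 264 h after the first of 3 daily doses of 200 nM 5-azacytidine. The members are the 4 libraries of experimental batch 1 with that treatment and time, out of 26 libraries in the series: knockout (KO) clones F4 and A12, labelled TET2 -/-, against wild-type (WT) clones A7 and C4. TF-1 is an established human erythroleukemia line that needs the cytokine GM-CSF to grow. All 4 libraries share the azacytidine treatment and the DMSO it was dissolved in, and each library is 1 clone, so that a difference between genotypes cannot be told apart from a difference between 2 pairs of clones. Beside it stand 3 other KO against WT comparisons of the same clones: DMSO alone at 264 h, azacytidine at 72 h, and cells taken before treatment, each with 2 KO and 2 WT libraries. How the knockout was made is not given in the sources used here.

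TET2 is a dioxygenase that oxidises 5-methylcytosine, a first step towards removing the methyl mark, and it is often mutated in myeloid disease. Azacytidine is a cytidine analogue that is built into RNA and DNA and, in DNA, traps the methyltransferase DNMT1, so that methylation is lost as cells divide. Red cell precursors switch on globin genes, heme synthesis and membrane skeleton genes under GATA1, KLF1 and the erythropoietin receptor, while the related GATA2 is used by progenitors, mast cells and basophils.

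The 4 libraries held 25819112 to 28248529 read pairs assigned to genes, and mitochondrial transcripts took 5.97% to 6.42% of them. GATA1, at 91.1 and 108 CPM (counts scaled to library size) in KO F4 and A12 against 115 and 106 CPM in WT A7 and C4, KLF1, TAL1, CD34, KIT and the shared receptor subunit CSF2RB were all detected. CSF2RA, the other GM-CSF receptor subunit, was listed at 0 in every library. That does not show that its transcript was absent, and whether its reads were missing or not counted was not tested. TET2 transcript was present in both genotypes, at 31.96 and 41.3 CPM in KO clones against 27.9 and 28.8 CPM in WT clones. Its log2 difference of 0.36 did not pass the test (edgeR quasi-likelihood adjusted p = 0.421), and a count over the whole gene does not show whether the protein was lost. Before treatment the WT clone labels went against the later ones: over 9206 genes, the log2 ratio of C4 to A7 had a correlation of -0.701 with that ratio at azacytidine 264 h, against 0.757 at azacytidine 72 h and 0.844 in DMSO. The genotype was the same under either label, so the KO against WT difference before treatment does not rest on which WT clone was which.

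After azacytidine at 264 h, 8 of 16380 genes tested differed between KO and WT at an adjusted p under 0.05, 6 higher and 2 lower in KO clones. That is 0.0488% of the genes tested, 0.0366% higher and 0.0122% lower. EMC10, WNT11, ST8SIA6, GP6, FCER1A and PLCH1 were higher in KO than in WT clones. The alpha-like globins HBA2 and HBZ were lower in KO clones. The median log2 difference over all genes was -0.002, the central 90% of genes lay between -0.60 and 0.71, and 1909 genes (11.7%) had an unadjusted p under 0.05. The 37 genes next in rank shared an adjusted p of 0.0815, and 145 genes had one under 0.1.

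**Figure D1:**
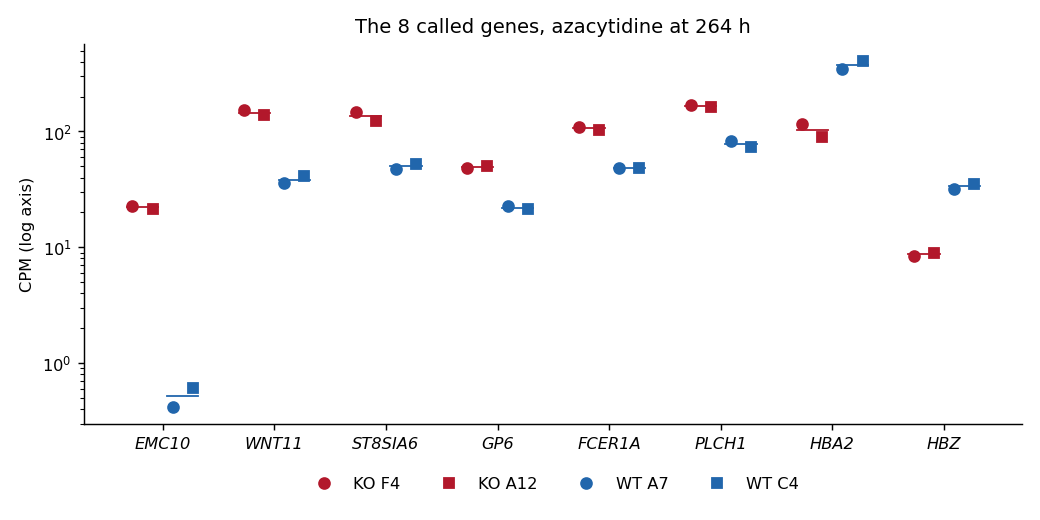
CPM on a log axis for the 8 genes called in KO (red) against WT (blue) clones after azacytidine at 264 h; each point is 1 library and each short line the mean of 2. No KO library overlapped a WT library, and EMC10 stood furthest apart, at 22.9 and 21.4 CPM in KO against 0.416 and 0.612 CPM in WT clones. The 8 genes were picked by their small p in the libraries shown, so the separation adds no further support.

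EMC10, ENSG00000161671.12 on chromosome 19 (hg19 chr19:50979657-50986608, plus strand), had the smallest p and encodes a subunit of the ER membrane protein complex, which inserts membrane proteins. It measured 22.9 CPM in KO F4 and 21.4 CPM in KO A12, against 0.416 CPM in WT A7 and 0.612 CPM in WT C4. The WT values rest on 12 and 16 read pairs, the KO values on 624 and 561. The log2 difference was 5.41 ± 0.22 (SE derived from the F statistic, 2 clones each, edgeR adjusted p = 0.00564). The level was 42.7-fold higher in KO clones. The contrast was present without azacytidine, with 27.8 and 22.0 CPM in KO against 0.182 and 0.552 CPM in WT clones in DMSO at 264 h (log2 6.07, adjusted p = 0.0286). Before treatment the log2 difference was 4.98 and did not pass the test (adjusted p = 0.229). No other gene of the ER membrane complex and insertion factor list, 24 tested, was called. EMC1, another subunit of the complex, measured 110 and 104 CPM in KO clones against 146 and 143 CPM in WT clones (log2 -0.44, adjusted p = 0.094).

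TET2 and azacytidine both act on cytosine methylation, which in human cells falls mainly on CG dinucleotides, so the promoter windows of called genes are shown for their CG content. Windows of 300 bases, 250 before to 50 after the annotated start, were read from RefSeq (GRCh38.p14) for 4 of the 8 called genes, EMC10, FCER1A, PLCH1 and GP6. The median of all 35116 windows held 14 CG dinucleotides. The next lines give 3 of them 5′ to 3′ on the gene's strand. Capitals mark CG dinucleotides and any match to the erythroid and mast cell GATA motif, searched as AGATAA on both strands.
EMC10, chr19:50476257-50476556, plus strand: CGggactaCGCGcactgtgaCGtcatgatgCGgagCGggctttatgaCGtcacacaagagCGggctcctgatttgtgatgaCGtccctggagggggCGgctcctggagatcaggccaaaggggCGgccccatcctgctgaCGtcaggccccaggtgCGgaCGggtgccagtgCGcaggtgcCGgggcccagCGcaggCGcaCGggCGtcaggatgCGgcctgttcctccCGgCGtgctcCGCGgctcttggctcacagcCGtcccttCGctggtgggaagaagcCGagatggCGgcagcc
FCER1A, chr1:159302086-159302385, plus strand: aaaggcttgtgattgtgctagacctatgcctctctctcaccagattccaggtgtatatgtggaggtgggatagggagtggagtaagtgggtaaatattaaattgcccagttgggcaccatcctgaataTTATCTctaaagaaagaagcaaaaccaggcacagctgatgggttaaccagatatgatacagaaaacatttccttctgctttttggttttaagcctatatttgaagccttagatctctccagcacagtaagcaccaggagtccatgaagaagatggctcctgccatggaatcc
GP6, chr19:55038215-55038514, minus strand: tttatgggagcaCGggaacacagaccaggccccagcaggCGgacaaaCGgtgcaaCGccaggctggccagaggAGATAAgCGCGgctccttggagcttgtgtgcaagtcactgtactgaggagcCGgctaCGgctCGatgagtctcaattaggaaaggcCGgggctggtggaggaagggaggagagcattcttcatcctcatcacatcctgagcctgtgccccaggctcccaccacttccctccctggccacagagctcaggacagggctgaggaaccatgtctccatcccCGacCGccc
The EMC10 window held 29 CG dinucleotides, a number that 24.2% of all windows reach or exceed, and no GATA motif. The FCER1A window held 0, as did 3.96% of all windows, and 1 GATA motif. GP6 had 12 CG dinucleotides and 1 GATA motif, and PLCH1 had 18 and none. The GATA motif was present in 10.3% of all windows. Among the 4 windows the number of CG dinucleotides thus ranged from 0 to 29; methylation itself was not analysed here.

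WNT11 encodes a secreted WNT ligand that acts mostly through the non-canonical branch of the pathway. It measured 154 CPM in KO F4 and 137 CPM in KO A12, against 35.8 CPM in WT A7 and 41.1 CPM in WT C4 (log2 1.91 ± 0.11 SE, adjusted p = 0.017). The KO clones were close to their own DMSO level of 150 and 155 CPM, while the WT clones stood below theirs of 56.7 and 48.5 CPM. The change of the difference between azacytidine and DMSO was 0.38 on the log2 scale and was not called (adjusted p = 0.65). Among the WNT ligands, receptors and targets, WNT11 was the 1 gene called of 23 tested, and the list's median log2 difference was 0.04. WNT5B, another non-canonical ligand, had a log2 difference of 0.99 (adjusted p = 0.22) and the receptor FZD7 one of -0.47 (adjusted p = 0.37), and neither passed.

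FCER1A, GP6, ST8SIA6 and PLCH1 were about 2.1- to 2.7-fold higher in KO clones, with little spread within a genotype. FCER1A, the alpha chain of the high-affinity IgE receptor of mast cells and basophils, measured 109 and 104 CPM in KO clones against 48.6 and 48.0 CPM in WT clones (log2 1.13 ± 0.08, adjusted p = 0.0275). GP6, the platelet collagen receptor, measured 48.6 and 50.7 CPM in KO against 22.5 and 21.3 CPM in WT clones (log2 1.17 ± 0.09, adjusted p = 0.0414). In both receptor genes the KO and WT libraries were separated by a gap wider than the range within either genotype. ST8SIA6, a sialyltransferase that adds alpha-2,8-linked sialic acid, measured 147 and 124 CPM in KO against 47.5 and 52.6 CPM in WT clones (log2 1.42 ± 0.11, adjusted p = 0.0409). PLCH1, a phospholipase C of the eta class, measured 168 and 163 CPM in KO against 82.1 and 73.9 CPM in WT clones (log2 1.07 ± 0.08, adjusted p = 0.0409). The same held for these 2 enzymes. ST8SIA6, GP6, WNT11, PLCH1 and EMC10 overlap annotated genes on the other strand, and the recorded counting command sets no strand option, so reads of the 2 strands could not be told apart there. The overlapping genes reached at most 9.40 CPM for ST8SIA6, 5.69 CPM for GP6, 5.90 CPM for WNT11, 0.267 CPM for PLCH1 and 0.152 CPM for EMC10.

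Globin transcripts were lower in KO clones. HBA2, an adult alpha-globin gene, measured 115 and 90.3 CPM in KO clones against 350 and 404 CPM in WT clones. Its log2 difference was -1.88 (SE 0.14, edgeR adjusted p = 0.0419). HBZ, the embryonic zeta-globin, measured 8.49 and 8.88 CPM in KO clones against 31.7 and 35.4 CPM in WT clones. The log2 difference of HBZ was -1.96 (SE 0.12, edgeR adjusted p = 0.0234). The 10 globin transcripts summed to 1104 and 922 TPM (a level corrected for gene length and library size) in KO F4 and A12, against 3128 and 3661 TPM in WT A7 and C4. Neither KO library came within the WT range.

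Of the 11 genes of the globin list, which holds the globins and the alpha-globin chaperone AHSP, 10 passed the filter on low counts and HBM did not. All 10 had a log2 difference below 0, 2 were called lower and none higher, and 9 had an unadjusted p under 0.05. The list's median was -1.56, beside -0.002 for all genes. HBA1 and HBA2 are near-identical copies whose reads the counting could split, and so are HBG1 and HBG2, so they were also summed: HBA1 with HBA2 gave 150 and 121 CPM in KO against 415 and 492 CPM in WT clones, and the fetal pair HBG1 with HBG2 gave 158 and 148 CPM in KO against 440 and 696 CPM in WT clones. Adult HBB measured 41.6 and 27.3 CPM in KO against 164 and 112 CPM in WT clones, with a log2 difference of -2.02 that did not pass (adjusted p = 0.0882). HBQ1, theta-globin, had the smallest difference of the list, with 11.1 and 10.2 CPM in KO against 14.6 and 12.2 CPM in WT clones (log2 -0.34, adjusted p = 0.467).

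**Figure D2:**
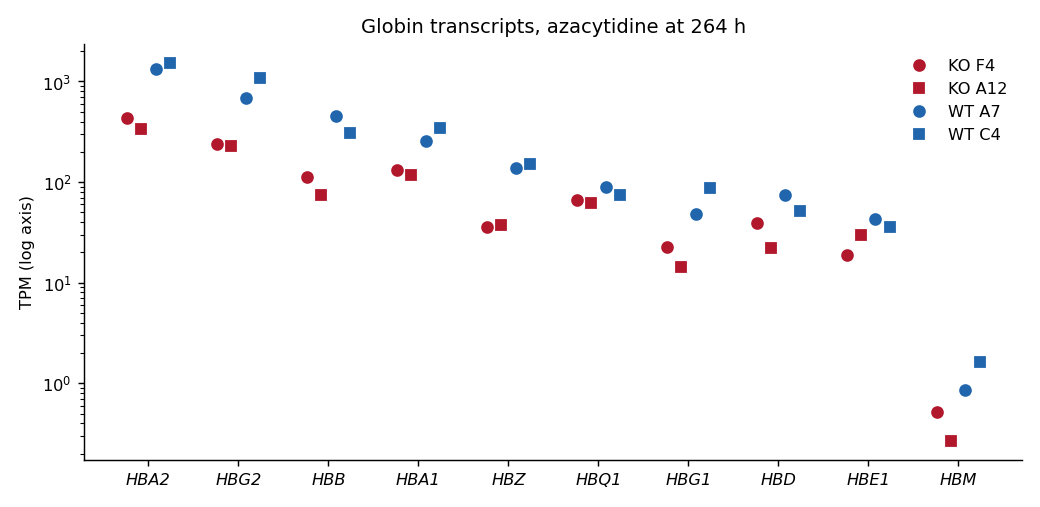
TPM on a log axis for the 10 globin genes after azacytidine at 264 h, KO clones (red) left of WT clones (blue), 1 point a library. HBA2 was the most abundant in all 4 libraries, from 338 TPM in KO A12 to 1530 TPM in WT C4, and for each gene both KO libraries lay below both WT libraries.

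In DMSO at 264 h, HBZ, HBA2 and HBE1 were also lower in both KO clones than in either WT clone, but none of these passed the test there (adjusted p = 0.0583, 0.0898 and 0.132); HBA1 was the globin called in DMSO (log2 -1.36, adjusted p = 0.0457). HBZ stood at 8.49 and 8.88 CPM in azacytidine-treated KO clones and 2.28 and 1.81 CPM in their DMSO cultures, and at 31.7 and 35.4 CPM in treated WT clones and 6.99 and 9.79 CPM in their DMSO cultures. The KO against WT log2 difference was -1.96 with azacytidine and -2.03 with DMSO, and the change of that difference, 0.03 ± 0.65 (SE), was not called (adjusted p = 0.999). For HBA2 the difference was -1.88 with azacytidine and -2.12 with DMSO, with a change of 0.23 ± 0.33 (adjusted p = 0.964). HBE1, embryonic epsilon-globin, was lower in both KO clones than in either WT clone under both treatments, with 5.44 and 8.61 CPM in KO against 12.0 and 10.2 CPM in WT clones after azacytidine, and 0.490 and 0.301 CPM in KO against 1.42 and 2.50 CPM in WT clones in DMSO. Its difference of -0.67 after azacytidine did not pass (adjusted p = 0.394), and its change of 1.53 ± 0.39 on the log2 scale was not called either (adjusted p = 0.324). A p that misses the threshold does not show that the differences were equal.

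**Figure D3:**
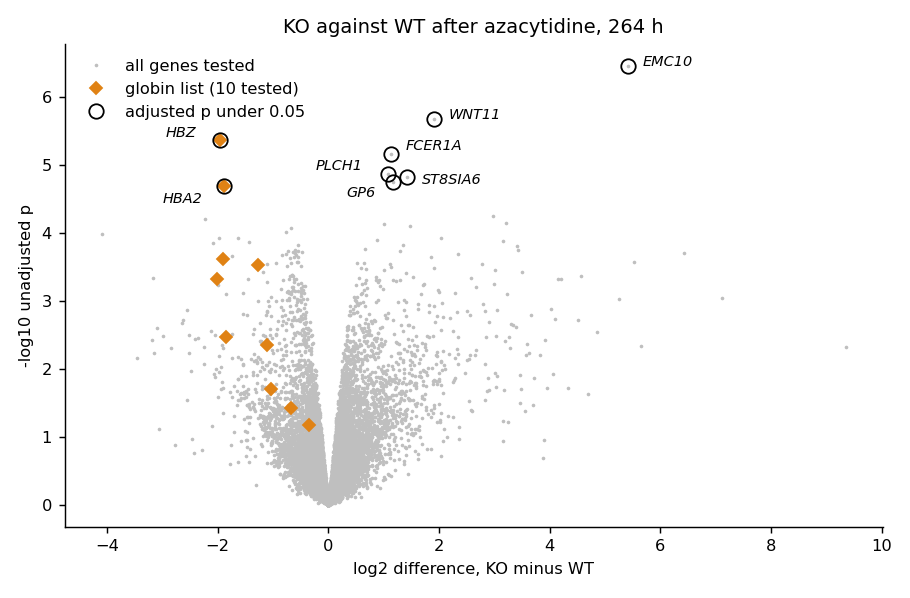
Log2 difference (KO minus WT) against -log10 of the unadjusted p for the 16380 genes tested after azacytidine at 264 h; open circles mark the 8 called genes and diamonds the 10 tested members of the globin list. The 10 diamonds all lie left of 0, between -2.02 and -0.34.

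Other red cell genes were lower in KO clones more often than higher, but none of those in the heme, membrane, enzyme and transcription factor lists was called. Over the 5 erythroid lists, globins included, 95 genes were tested, 74 had a log2 difference below 0, and 43 were lower and 4 higher at an unadjusted p under 0.05. Over all genes, 5.12% were lower and 6.54% higher at that threshold. The number called depended on the tool: edgeR called 2 of the 95 lower and 0 higher. DESeq2 called 30 of the 95 lower and 2 higher, against 1.27% lower and 1.53% higher over all genes. Limma-voom with clone correlation called 17 lower and 2 higher, against 1.15% lower and 1.12% higher over all genes. With the spread shared over 19 libraries 11 were lower and 2 higher, against 0.958% lower and 1.01% higher over all genes. The median was -0.26 for the 5 lists together, -0.46 for membrane and blood group genes, -0.39 for red cell enzymes and nuclear proteins, -0.22 for heme synthesis and iron handling, and -0.07 for transcription factors and receptors. The membrane median was -0.28 without KO A12, and the enzyme median was -0.17 without KO A12, -0.10 without WT C4 and -0.26 with no filter or with limma-voom.

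The genes with the smallest p in these lists spanned heme, membrane and glycolysis. ALAS2, the erythroid enzyme that starts heme synthesis, measured 9.99 and 8.11 CPM in KO clones against 34.6 and 49.2 CPM in WT clones (log2 -2.22, adjusted p = 0.0815). PKLR, the red cell pyruvate kinase, measured 1.80 and 2.17 CPM in KO against 7.21 and 9.48 CPM in WT clones (log2 -2.08, adjusted p = 0.0815). SPTB, beta-spectrin of the membrane skeleton, measured 13.9 and 9.29 CPM in KO against 35.6 and 41.8 CPM in WT clones (log2 -1.75, adjusted p = 0.0815). None of these passed the test. Their KO and WT libraries did not overlap, but the genes were picked by their small p. How often libraries separate in this way over all genes was not counted. ALAS2 and PKLR overlap genes on the other strand, APEX2 with up to 26.0 CPM and HCN3 with up to 3.36 CPM, from which their reads could not be told apart. ANK1, which anchors that skeleton to the membrane, measured 219 and 214 CPM in KO against 329 and 379 CPM in WT clones (log2 -0.72, adjusted p = 0.0815), and the iron sensor TFR2 measured 67.1 and 78.7 CPM in KO against 114 and 112 CPM in WT clones (log2 -0.64, adjusted p = 0.0936).

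The regulators lay on both sides of 0. KLF1, an activator of adult globin and red cell membrane genes, measured 105 and 98.8 CPM in KO clones against 147 and 182 CPM in WT clones (log2 -0.70, adjusted p = 0.1). EPOR, the erythropoietin receptor, measured 16.0 and 18.2 CPM in KO against 31.8 and 41.8 CPM in WT clones (log2 -1.12, adjusted p = 0.0898). GATA2 lay the other way, with 722 and 797 CPM in KO against 457 and 489 CPM in WT clones (log2 0.67, adjusted p = 0.0815). GATA1 (log2 -0.15), TAL1 (-0.03) and GFI1B (-0.03) were within 0.2 of 0. None of these regulators was called by the edgeR test.

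Mast cell and basophil genes had a median of 0.62, with 16 of 19 tested members above 0, FCER1A called higher and none lower. That median was 0.33 without KO A12 and 1.05 without WT A7, and without KO A12 the megakaryocyte and platelet median, 0.41, was above it. At an unadjusted p under 0.05, 6 were higher and 1, the transcription factor MITF (log2 -1.04), was lower. Over all genes 6.54% were higher and 5.12% lower at that threshold. The mast cell and basophil list summed to 1364 and 1423 TPM in KO clones against 912 and 893 TPM in WT clones. None of its 23 genes was at 0 in all 4 libraries. Among megakaryocyte and platelet genes GP6 was called of 18 tested, and the median was 0.36. MMRN1, a platelet granule protein, measured 24.3 and 38.4 CPM in KO against 9.85 and 8.83 CPM in WT clones (log2 1.73, adjusted p = 0.0903). Eosinophil (0.36), neutrophil and monocyte (0.03), stem and progenitor (-0.004) and lymphoid (0.09) lists had no gene called, beside 0.0488% over all genes. The eosinophil median changed sign with the setting: it was -0.006 without KO F4, -0.51 without KO A12, -0.37 without WT C4, -0.05 with no filter, -0.17 with the spread shared over 19 libraries and -0.10 with limma-voom. The neutrophil median was -0.007 without KO A12, and the stem and progenitor median was 0.12 without KO A12 and 0.16 without WT A7. Endothelial, stromal and epithelial genes (11 of 19 tested, median 0.48) and ephrin receptor, integrin and adhesion genes (30 tested, median 0.20) had none called either. At an unadjusted p under 0.05, 5 were higher and 1 lower in the first list and 10 higher and 1 lower in the second. The shares over all genes were the 6.54% higher and 5.12% lower given above. Whether these values reflect more cells of a type or more RNA per cell cannot be told apart in bulk libraries.

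**Figure D4:**
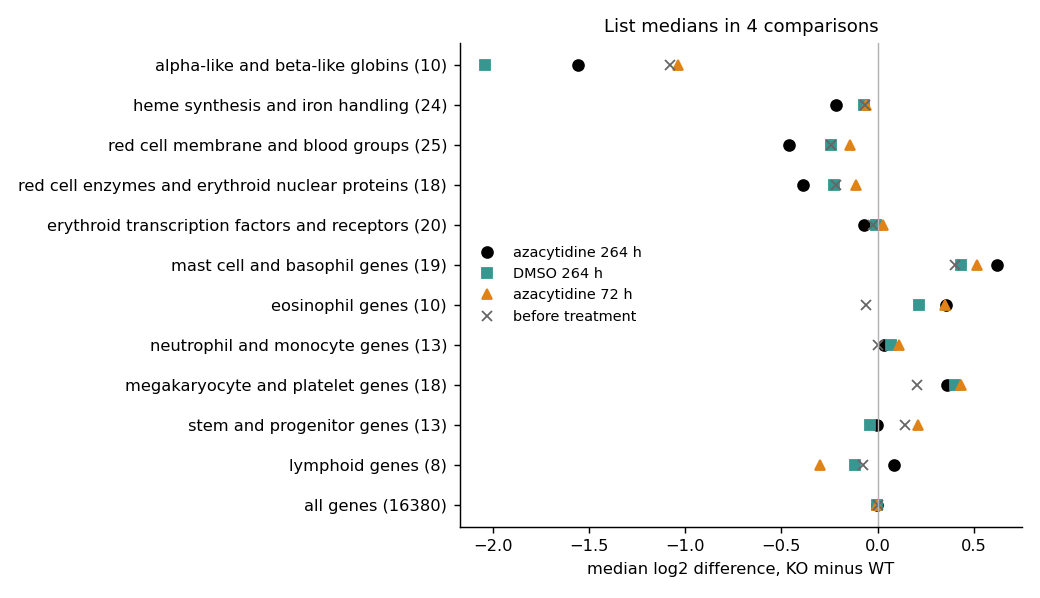
Median log2 difference (KO minus WT) of each red cell and blood lineage list in 4 comparisons, with the number of members tested after azacytidine at 264 h in brackets. The globin median was below -1 in all 4 comparisons, and the mast cell and basophil median was between 0.40 and 0.62.

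Over all genes 0.0488% were called, so a list of 21 to 31 genes would seldom hold one. Lists tied to azacytidine or to growth held no called gene, and their medians lay between -0.10 and 0.22. These were the TET, DNMT and 5-methylcytosine repair genes (21 tested, median 0.01), the azacytidine uptake and pyrimidine genes (25 tested, median -0.02), the p53 targets (25 tested, median 0.05), the G1/S genes (31 tested, median -0.06), the G2/M genes (26 tested, median -0.10) and the interferon response genes (26 tested, median 0.22). At an unadjusted p under 0.05, 5 interferon genes were higher and 1 lower, and 4 p53 targets higher and 0 lower. The counts were 1 and 3 for G1/S, 0 and 3 for G2/M, 2 and 0 for the TET and DNMT list, and 1 and 0 for azacytidine uptake. Over all genes 6.54% were higher and 5.12% lower. DNMT1, the maintenance methyltransferase that azacytidine traps, measured 516 and 492 CPM in KO against 553 and 536 CPM in WT clones. Its log2 difference was -0.12 (edgeR adjusted p = 0.526). DNMT3A (log2 -0.24) and DNMT3B (log2 0.05) were not called. Among germline and cancer-testis genes, often silenced by methylation, 8 of 29 passed the filter and none was called. All 8 had a log2 difference above 0, with a median of 0.79. From 1 pair of KO and WT libraries to another that median ranged from 0.23 to 1.65. At an unadjusted p under 0.05, 2 were higher and 0 lower, beside 6.54% higher and 5.12% lower over all genes. The list's summed level was 165 and 255 TPM in KO F4 and A12, against 51.7 and 61.1 TPM in WT A7 and C4. Its median was 0.58 in DMSO at 264 h, 0.98 at azacytidine 72 h and 0.99 before treatment.

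All 8 genes called after azacytidine at 264 h had the same sign in the 3 other comparisons, in libraries of the same clones. In DMSO at 264 h 34 genes were called (0.208% of 16333), of which EMC10, FCER1A, GP6, ST8SIA6 and WNT11 were among the 8, that is 62.5% of the 8 and 14.7% of the 34. After azacytidine at 72 h 31 genes were called (0.19% of 16322), and FCER1A, HBA2, HBZ, ST8SIA6 and WNT11 were shared, 62.5% of the 8 and 16.1% of the 31. Before treatment 9 were called (0.0543% of 16560), and HBA2 was shared, 12.5% of the 8 and 11.1% of the 9. Each of the 34 genes called in DMSO had the same sign after azacytidine. Their median size was 1.37 on the log2 scale in DMSO and 1.35 after azacytidine. The 8 and the 34 were both picked by their small p, in libraries of the same clones. The share of all genes that kept their sign was not counted. Among the 34, CCNL2, ATAD3B, RPL22, PARK7, MTOR, VPS13D, NECAP2, UBR4 and MRTO4 lie near the start of chromosome 1 and were lower in KO clones. The 34 are therefore not separate observations.

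Genes just outside the threshold included some with wide separations. IGFBP7, a secreted IGF-binding protein, measured 7.68 and 6.93 CPM in KO clones against 0.520 and 1.11 CPM in WT clones (log2 3.16, edgeR adjusted p = 0.0815). It overlaps POLR2B on the other strand. Its overlapping genes reached up to 226 CPM, and reads of the 2 strands could not be told apart there. PTPN14, a tyrosine phosphatase, measured 17.2 and 20.5 CPM in KO against 6.83 and 6.61 CPM in WT clones (log2 1.48, adjusted p = 0.0815). The KO libraries lay above the WT libraries in both genes. PLK2, a stress-responsive kinase, measured 241 and 277 CPM in KO against 146 and 132 CPM in WT clones (log2 0.88, adjusted p = 0.0815). CD36, a scavenger receptor of erythroid precursors and monocytes, measured 20.6 and 21.7 CPM in KO against 48.2 and 65.1 CPM in WT clones (log2 -1.43, adjusted p = 0.0815). PLK2 was higher and CD36 lower in both KO libraries than in either WT library. These genes too were picked by their small p, so the separation adds no further support.

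Coding genes near the start of chromosome 1 had a median below 0. In the first 20 Mb (hg19) 159 coding genes were tested, and their median log2 difference was -0.54. At an unadjusted p under 0.05, 124 were lower and 1 higher, beside 5.12% lower and 6.54% higher over all genes. None was called by edgeR. DESeq2 called 73 of the 159 lower and 0 higher, against 1.27% lower and 1.53% higher over all genes. The median there was -0.55 in DMSO, -0.57 after azacytidine at 72 h and -0.59 before treatment. UBE4B, a ubiquitin chain ligase in that stretch, measured 70.9 CPM in both KO clones against 113 and 112 CPM in WT clones (log2 -0.67, adjusted p = 0.0815), and EMC1 lies there as well. Between 25 and 30 Mb the 71 coding genes tested had a median of 0.39. The bounds were chosen with the values known, and DNA copy number was not analysed here.

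Whether the KO against WT difference itself depended on azacytidine was tested in a model over 15 batch 1 libraries taken after treatment, with the clone as a block. Of 18828 genes tested, 2 (0.0106%) were called for azacytidine 264 h minus DMSO 264 h. CAPRIN2, an RNA-binding protein known from maturing erythroid cells, measured 28.2 and 30.4 CPM in azacytidine-treated KO clones against 43.9 and 58.2 CPM in treated WT clones, and 24.7 and 29.5 CPM in DMSO KO clones against 24.2 and 26.8 CPM in DMSO WT clones. The genotypes overlapped in DMSO and were apart after azacytidine. The change of the difference was -0.88 ± 0.11 on the log2 scale (edgeR adjusted p = 0.000117). RPL41, a ribosomal protein gene, had a change of 0.42 ± 0.07 (adjusted p = 0.0168), with 739 and 892 CPM in KO against 669 and 628 CPM in WT clones after azacytidine, and 691 and 722 CPM in KO against 794 and 719 CPM in WT clones in DMSO. Neither was called without the clone block, nor in a fit of all 25 libraries with clone and batch terms. That fit takes the WT libraries from before treatment under the clone labels doubted above; without them, in 23 libraries, neither was called. CAPRIN2 stayed called whichever of the 8 libraries was left out, while RPL41 stayed called only without either KO F4 library; without any other library its adjusted p was 0.0636 to 0.537.

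Between azacytidine at 72 h and at 264 h, the difference changed for 19 genes (0.101% of 18828), 14 towards lower and 5 towards higher in KO clones at the later time. Among them CAPRIN2, AQP1, EPOR, TFRC and SLC40A1 moved lower, together with RUNX1, AKR1C1, AKR1C3, IGFBP5, TNXB, SPIN4 and 2 genes without a symbol in the tables used. P3H3, PTPRCAP, ARHGAP9, CCR4 and PLCH1 moved higher. Of the 98 genes in the 5 erythroid lists tested here, 6 were called lower and none higher, against 0.0744% lower and 0.0266% higher over all genes. RUNX1, from the transcription factor list, is among the 6, and CAPRIN2 is in none of the 5 lists. At an unadjusted p under 0.05 the lists held 31 lower and 4 higher, while over all genes 3.87% were lower and 3.48% higher. None of the 19 was called without the clone block, nor in the fit of all 25 libraries; without the WT libraries from before treatment that fit called 2 of them, AKR1C1 and TNXB. Of the 19, CAPRIN2 and AKR1C1 stayed called whichever library was left out, and they were the 2 that did without WT A7 at 264 h. At 264 h, 18 stayed called without KO F4, 6 without KO A12 and 6 without WT C4; at 72 h, 18 stayed called without KO F4, 6 without KO A12, 9 without WT A7 and 13 without WT C4. AKR1C1 and AKR1C3 belong to a family of similar copies between which the counting could split reads.

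The red cell genes called did not share 1 course. AQP1, the red cell water channel, measured 18.2 and 10.2 CPM in KO against 11.8 and 17.1 CPM in WT clones at 72 h, and 3.42 and 2.02 CPM in KO against 6.94 and 6.92 CPM in WT clones at 264 h (change -1.36 ± 0.22, adjusted p = 0.00304). AQP1 overlapped between the genotypes at 72 h and not at 264 h. TFRC, the transferrin receptor that brings iron into the cell, measured 3488 and 2946 CPM in KO against 4651 and 4366 CPM in WT clones at 72 h, and 2965 and 2374 CPM in KO against 5079 and 4264 CPM in WT clones at 264 h (change -0.33 ± 0.07, adjusted p = 0.0448). EPOR changed by -0.76 ± 0.15 (adjusted p = 0.0448), with 17.9 and 25.0 CPM in KO against 21.7 and 33.5 CPM in WT clones at 72 h, and the 264 h values given above. EPOR also overlapped at 72 h and not at 264 h, while TFRC was lower in both KO clones at both times. SLC40A1, the iron exporter ferroportin, measured 123 and 155 CPM in KO against 116 and 128 CPM in WT clones at 72 h, and 177 and 213 CPM in KO against 198 and 231 CPM in WT clones at 264 h, so that the genotypes overlapped at both times (change -0.33 ± 0.07, adjusted p = 0.0448).

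RUNX1, a transcription factor of blood stem cells and megakaryocytes, was apart between genotypes at 72 h and overlapped at 264 h. It measured 229 and 242 CPM in KO against 165 and 187 CPM in WT clones at 72 h, and 148 and 142 CPM in KO against 140 and 143 CPM in WT clones at 264 h (change -0.40 ± 0.07, adjusted p = 0.0167). PLCH1 was the only gene called both in the 264 h comparison and in this change, which was 0.36 ± 0.08 (adjusted p = 0.0453): it measured 185 and 164 CPM in KO against 118 and 94.5 CPM in WT clones at 72 h.

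**Figure D5:**
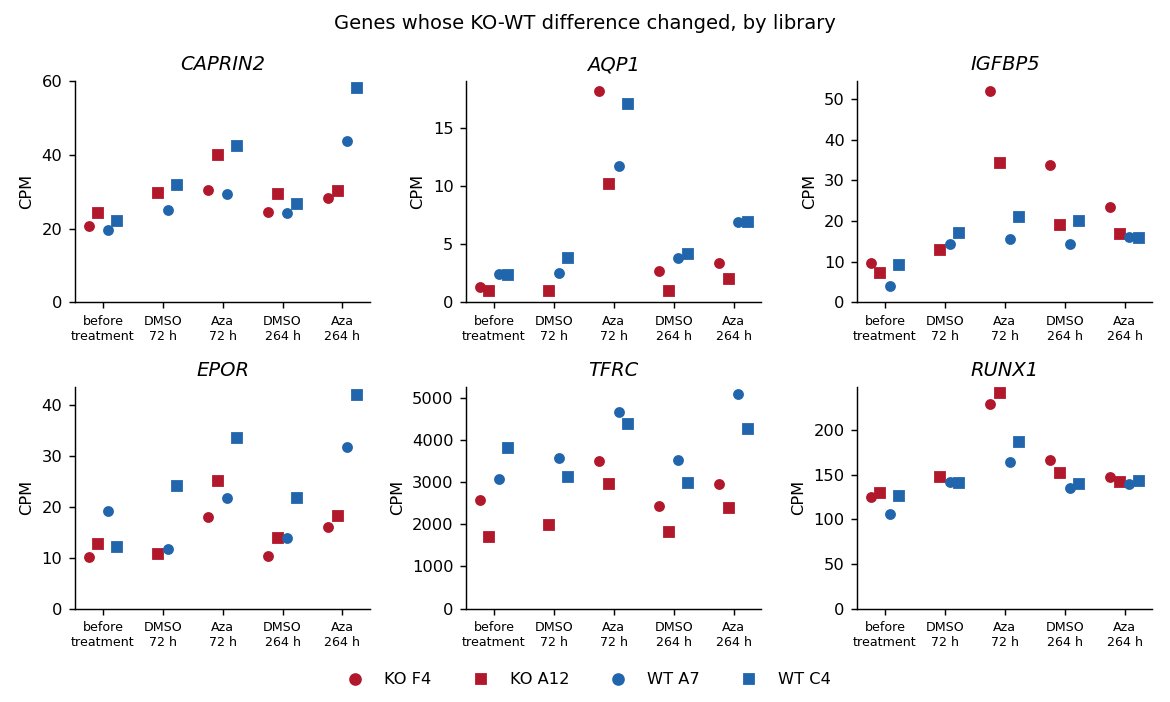
CPM by library for 6 genes whose KO against WT difference changed between azacytidine 72 h and 264 h, KO clones (red) left of WT clones (blue) in each condition; 1 KO library in DMSO at 72 h failed quality control per the labels and is absent. CAPRIN2 overlapped between genotypes in the first 4 conditions and reached 43.9 and 58.2 CPM in WT clones, above 28.2 and 30.4 CPM in KO clones, after azacytidine at 264 h.

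Leaving out 1 library leaves a single clone of that genotype, which is then assumed to vary like the 2 clones of the other. Without WT A7, FCER1A, ST8SIA6 and GP6 no longer passed and 25 genes were called in all; without WT C4, EMC10 and WNT11 were the 2 of the 8 that still passed, among 11 called. All 8 still passed when either KO clone was left out, among 1045 genes called without KO F4 and 156 without KO A12. DESeq2 called 459 genes (251 higher and 208 lower, 2.8% of those tested), the 8 among them, including 7 globin list members lower. Of the 208 lower, 73 were coding genes in the first 20 Mb of chromosome 1. Limma-voom with clone correlation called 5 globin list members lower, and the fit with the spread shared over 19 libraries called 2.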

How the data were processed

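RNA of TF-1 clones was sequenced from TruSeq stranded mRNA libraries on a NovaSeq, per the labels' protocols. The authors deposited 1 table of raw counts per gene, made with featureCounts 1.6.2 on read pairs over exons of GENCODE release 19 with no strand option, per the file headers; gene lengths come from the same table. Reads were aligned with STAR 2.6.1d to hg19, per the submitters' processing notes. Symbols were matched for 51996 of 57773 gene IDs by the reference table and for 342 by a later GENCODE release; 5435 kept only their ID.

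Counts were tested with edgeR 4.0.16 (R 4.3.3): TMM scaling, filterByExpr, robust quasi-likelihood fit on the 4 libraries of a comparison, Benjamini-Hochberg adjustment, called at an adjusted p under 0.05. Changes of the KO against WT difference were tested with clone and genotype-by-condition terms over 15 libraries. Each SE is the absolute log2 difference divided by the square root of the F statistic of its edgeR test. It was not computed from the clone values directly. CPM use TMM library sizes over the 25 libraries that passed quality control; TPM use the deposited gene lengths. Library totals ranged from 24992192 to 40187322 counts, so that a count of 3, the limit a count of 0 allows, is about 0.1 CPM and covers counting error only. The alternatives were RLE scaling, no filter, DESeq2 1.42.0, limma-voom 3.58.1 with clone correlation, a spread shared over 19 libraries, and leaving out each library. The functions were tested on simulated data. Nothing in the labels says that clones were cultured more than once, so p-values of the 4-library fits measure the spread between 2 clones a genotype. Those of the changes over 15 libraries measure the spread left across conditions once differences between clones are taken out.

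The genes named are those called, the next 8 in each direction by p, TET2 and the DNMT genes, the globin list, up to 4 members of each list by p, and called changes; MITF, GFI1B, RUNX1, SPIN4, AKR1C3, SLC40A1 and the IDs without a symbol fall outside that rule and were chosen after their values were seen, and 1 gene that it takes is not reported here. The members, the 31 gene lists and the tests were chosen with earlier results of these data known. The same clones recur across conditions, so the clone pairs the libraries: over 9206 genes the A12 to F4 ratio at 264 h with azacytidine correlated with the same ratio at 0.761 at 72 h and 0.822 in DMSO, and the C4 to A7 ratio at 0.757 and 0.844. The WT libraries from before treatment, whose labels go the other way, did not enter the 15-library models; they are in the 19- and 25-library alternatives, which were also run without them, a choice made after seeing the data.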

Additional observations from a re-analysis of the deposited data

Results flagged for a closer look

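The KO against WT difference itself differed between conditions for 2 genes in azacytidine against DMSO at 264 h. The change was -0.88 on the log2 scale for CAPRIN2 and 0.42 for RPL41.

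Between azacytidine at 264 h and at 72 h, the tested change of the KO against WT difference towards lower in KO clones was -0.78 for CAPRIN2, -0.55 for AKR1C1, -0.92 for IGFBP5, -1.36 for AQP1, -1.82 for TNXB, -0.49 for SPIN4, -0.40 for RUNX1, -0.42 for AKR1C3, -0.76 for EPOR, -0.33 for SLC40A1 and -0.33 for TFRC. It was -0.38 for ENSG00000117289.7 and -1.90 for ENSG00000225485.3, which have no symbol in the tables used. The change towards higher in KO clones was 0.67 for P3H3, 0.76 for PTPRCAP, 0.70 for ARHGAP9, 0.38 for CCR4 and 0.36 for PLCH1. IGFBP5 measured 52.0 and 34.2 CPM in KO clones against 15.5 and 21.1 CPM in WT clones at 72 h, and 23.4 and 16.9 CPM in KO clones against 16.2 and 15.8 CPM in WT clones at 264 h. PTPRCAP was high in 1 WT clone, with 8.93 and 13.9 CPM in KO clones against 22.3 CPM in WT A7 and 4.97 CPM in WT C4 at 264 h.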

How the results depend on the processing

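The count of 8 genes after azacytidine at 264 h was the same with RLE scaling and without the robust option, and it became 1270 with no filter, 459 with DESeq2, 375 with the spread shared over 19 libraries and 433 with limma-voom and clone correlation, or 603 without the WT libraries from before treatment, a setting chosen after seeing the data. Leaving out 1 library gave 11 to 1045. All 8 genes kept their sign throughout; HBZ was lost with the shared spread, and the calls lost without WT A7 or WT C4 are named in the report. The count in DMSO (34) became 1113 with no filter, 414 with DESeq2 and 0 (without WT A7) to 633 (without KO F4) without 1 library; at azacytidine 72 h (31) it became 884, 351 and 8 to 538, and before treatment (9) it became 785, 275 and 49 to 463. The cause was not tested.

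The tested changes depend on pairing by clone: with no replicate block 0 of the 2 genes for azacytidine against DMSO and 0 of the 19 for 264 h against 72 h were called, and in a fit of all 25 libraries with clone and batch terms also 0 and 0, or 0 and 2 without the WT libraries from before treatment. With no filter 37 and 87 were called, and with the 8 libraries of each contrast alone 10 and 6. Leaving out 1 library gave 1 to 189 and 3 to 206, the highest of both without KO F4 at azacytidine 264 h and the 3 without WT A7 there. For KO against WT itself no paired analysis was possible because the clones of the 2 genotypes are different cells. The globin list's median of -1.56 was -1.93 without KO F4 and -1.23 without KO A12. Depth limits the WT level of EMC10, which rests on 12 and 16 read pairs after azacytidine at 264 h.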
